A study of Rattus norvegicus with 9 samples.

Results

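Primary cultures of cartilage progenitor cells from the condylar cartilage of wild-type rats were compared with and without flow fluid shear stress, the drag that moving liquid exerts on a cell layer. The comparison uses 6 of the 9 poly(A)-selected RNA libraries of the series. The control group, P3, holds 3 libraries of cells cultured to passage 3. The FFSS group holds 3 libraries of passage 3 cells exposed to the flow, which the series treats as a model of mechanically induced degeneration of the cells. Another group of 3 libraries, cells at passage 9, entered only the estimate of the spread. The strength and the duration of the flow are not given in the sources used here. Whether the replicates were separate animals, separate cultures or repeats of 1 culture is not stated, so a p below reflects only how far these libraries spread.

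Cells of joint cartilage sense fluid flow and deformation through ion channels, integrins and the primary cilium. The first genes to answer such a stimulus are the immediate early genes, whose transcription needs no new protein. A slower branch runs through NF-kB, a transcription factor held in the cytoplasm by inhibitors that are destroyed when the pathway is switched on. NF-kB then drives chemokines, cytokines, matrix-degrading enzymes and its own inhibitors. In cartilage these products are known from joint inflammation, while aggrecan and collagens give the tissue its stiffness.

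The deposited values are FPKM, which corrects the number of fragments for the length of the gene and the depth of the library. That depth, summed over genes, was 14033174 to 15191861 fragments in the 6 libraries. The test covered 12424 genes, those that reached 1 FPKM in 3 or more of the 6 libraries. A gene under 1 FPKM in all of P3 can pass through its FFSS libraries alone. Fosb, Ifi44, Gdf5, Fabp4, Mt1m, Osgin1, Mmp13, Cd68, Lcn2, Chi3l1, AC128059.1 and AC128059.4 below did so. The direction of such a gene is largely set by the filter. The same holds the other way round for a gene under 1 FPKM in all of FFSS, as for Dlx3, Plekha7, Tenm4 and Mir770 below. Each log2 change below is the mean of log2(FPKM + 1) in FFSS minus that in P3, which understates the change of a gene near 1 FPKM. A gene is called when its Benjamini-Hochberg adjusted p from limma is under 0.05. Values of the libraries are printed in the order of replicates 1, 2 and 3.

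The labelled cell type was checked against its markers. Sox9, the master transcription factor of cartilage, was at 4.72, 4.79 and 4.06 FPKM in P3 and 15.3, 9.81 and 13 FPKM in FFSS. Acan, the core protein of aggrecan, was abundant at 128, 135 and 122 FPKM in P3 and 29.3, 48.2 and 43.2 FPKM in FFSS. Col2a1, the collagen of mature cartilage, stood at 1.06, 0.703 and 0.717 FPKM in P3 and 0.118, 0.378 and 0.0297 FPKM in FFSS and did not pass the filter. Matn1 and Epyc, other genes of cartilage matrix, were listed at 0 in all 6 libraries. Thy1, Eng and Pdgfrb, surface proteins of mesenchymal progenitors, had mean levels of 890.4, 59 and 106 FPKM in P3. They are among the abundant members of their list. Of 20 listed progenitor markers 14 passed the filter, and of 29 listed genes of cartilage matrix and chondrogenic factors 18 did. Of 48 markers of leukocytes, endothelium, muscle, epithelium and red cells, 14 were listed at 0 in all 6 libraries and 12 reached 1 FPKM in any of them. Cdh5 of endothelium, Cd163 of macrophages, Cd3e of T cells, Krt5 of epithelium, Pax7 of muscle and Hbb of red cells were among those at 0. Cd14 of the leukocyte list, Egfl7 of the endothelial list and Tnnt3 and Acta1 of the muscle list were the highest of the 12, at up to 94.3, 17.9, 37 and 13.8 FPKM. Of 9 markers of synovial and tendon fibroblasts, 7 reached 1 FPKM in any of the 6 libraries. Among these, Scx was at 123, 148 and 91.8 FPKM in P3 and 87.4, 218 and 175 FPKM in FFSS. Fmod and Thbs4 had mean levels of 1121 and 224 FPKM in P3.

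The FFSS libraries differed among themselves more than the P3 libraries did. The root mean square SD of a gene's log2(FPKM + 1) was 0.456 in FFSS and 0.238 in P3. FFSS replicate 1 was the FFSS library with the highest r with each P3 library over the tested genes (0.932 to 0.942). Its r was lower with FFSS replicate 2 (0.911) and higher with FFSS replicate 3 (0.947). These are descriptions over genes that share libraries, not replicates. FFSS replicate 3 lay between the other FFSS libraries. Among 334 genes of at least 10 FPKM that differed by at least 4-fold between FFSS replicates 1 and 2, replicate 3 had an intermediate FPKM in 325 (97.3%). Its median distance from replicate 2 toward replicate 1 was 36.4% of the gap, with quartiles of 29.7% and 44.2%. The same count for a P3 library between the other P3 libraries was 15 to 23 of 30 or 31 genes. Mitochondrial transcripts took 2.12 to 2.32% of the fragments in P3 and 2.96 to 3.75% in FFSS. The part that these differences between libraries have in the results was not tested.

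In total 1512 genes were called higher in FFSS, 12.2% of those tested, and 1382 genes were called lower, 11.1%. These shares are the background for each list count below. The median log2 change over all tested genes was -0.01. All 3 FFSS libraries lay above all 3 P3 libraries in 2579 genes (20.8%) and below them in 2801 genes (22.5%). The rise was at least 1 on the log2 scale in 638 called genes and at least 2 in 137, and the fall was at least 1 in 402 and at least 2 in 47. Single libraries weighed on these counts. For the gene lists whose calls are counted below, each library whose removal moved a count by over 1.5 times is named beside it. Leaving out FFSS replicate 1 raised them to 2548 higher (20.5%) and 2539 lower (20.4%). Leaving out P3 replicates 1, 2 or 3 or FFSS replicate 3 lowered the count higher to 699, 773, 845 and 832, and the count lower to 567, 611, 700 and 736, in that order. A core of 635 genes higher and 499 genes lower was called in every fit that left out 1 library.

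**Figure D1:**
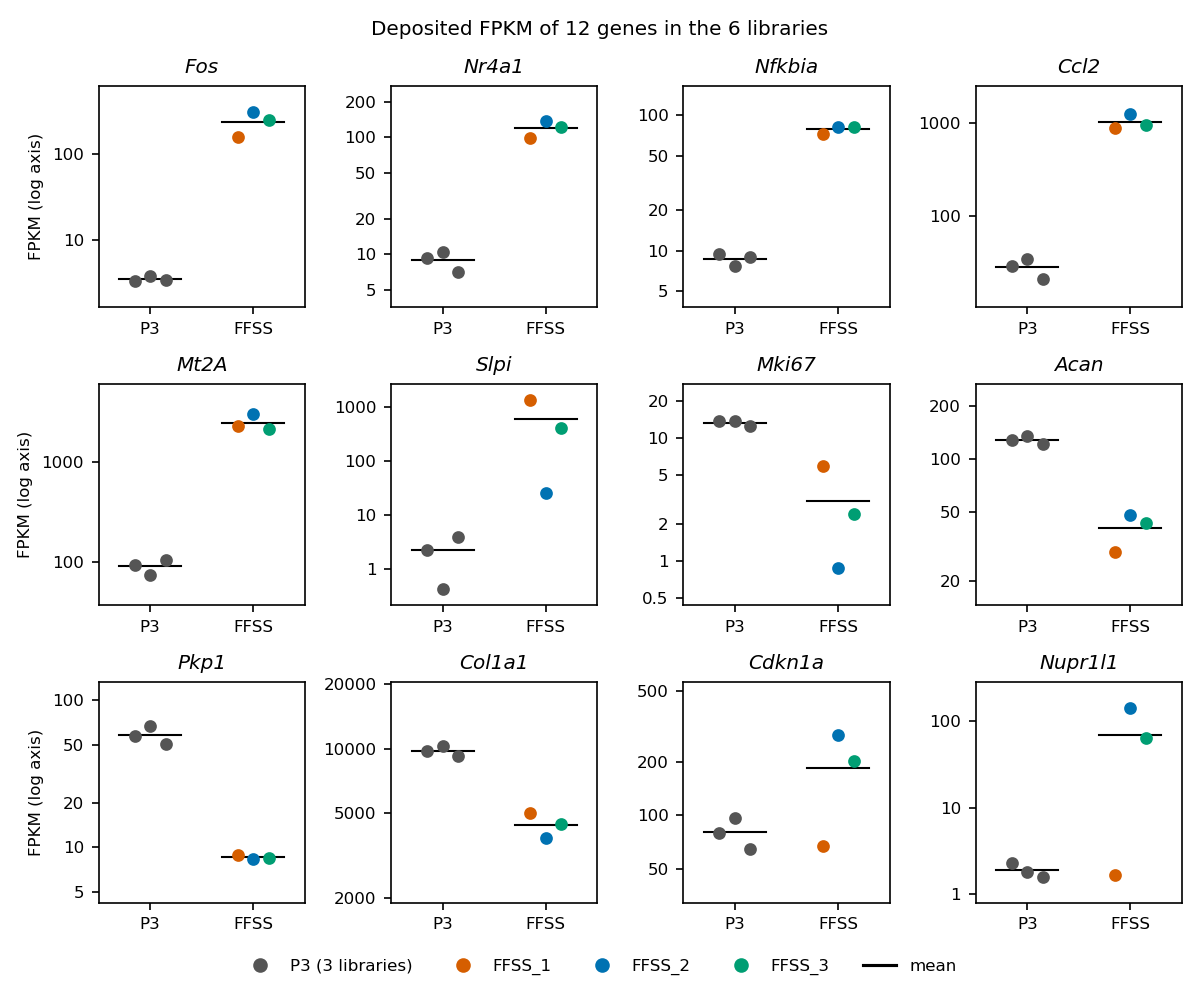
Deposited FPKM (log axis) of 12 genes in the 3 P3 and the 3 FFSS libraries, 1 point per library, with a line at each group mean. Fos, Nr4a1, Nfkbia, Ccl2 and Mt2A are high in all 3 FFSS libraries, while Cdkn1a and Nupr1l1 in FFSS replicate 1 lie near their P3 values and Slpi is highest there.

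How far FFSS replicate 1 followed the other FFSS libraries was measured as its position. This is its difference from the P3 mean as a percentage of that of the mean of FFSS replicates 2 and 3, on the log2(FPKM + 1) scale. A position of 0% equals P3 and 100% equals replicates 2 and 3. The median over the 2894 called genes was 69.4%. It was 72.4% for genes called higher, with quartiles of 45.7% and 106%, and 67.6% for genes called lower, with quartiles of 46.8% and 98.5%. Replicate 1 had a part in those calls. Among genes called without it, the median was 40.0% for the 2548 higher and 41.5% for the 2539 lower genes. Those genes were chosen by replicates 2 and 3, which also define 100%, so the choice can lower the position of replicate 1. The same measure with replicate 2 or 3 held out was not made. Of the higher genes, 775 (30.4%) had replicate 1 within the range of P3 or past it, 1229 had it between the groups, and 544 (21.4%) had it as far from P3 as the nearer of replicates 2 and 3. Of the lower genes, the counts were 696 (27.4%), 1371 and 472 (18.6%). FFSS replicate 1 is 1 library with no replicate of its own, so its positions are descriptions and carry no test.

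**Figure D2:**
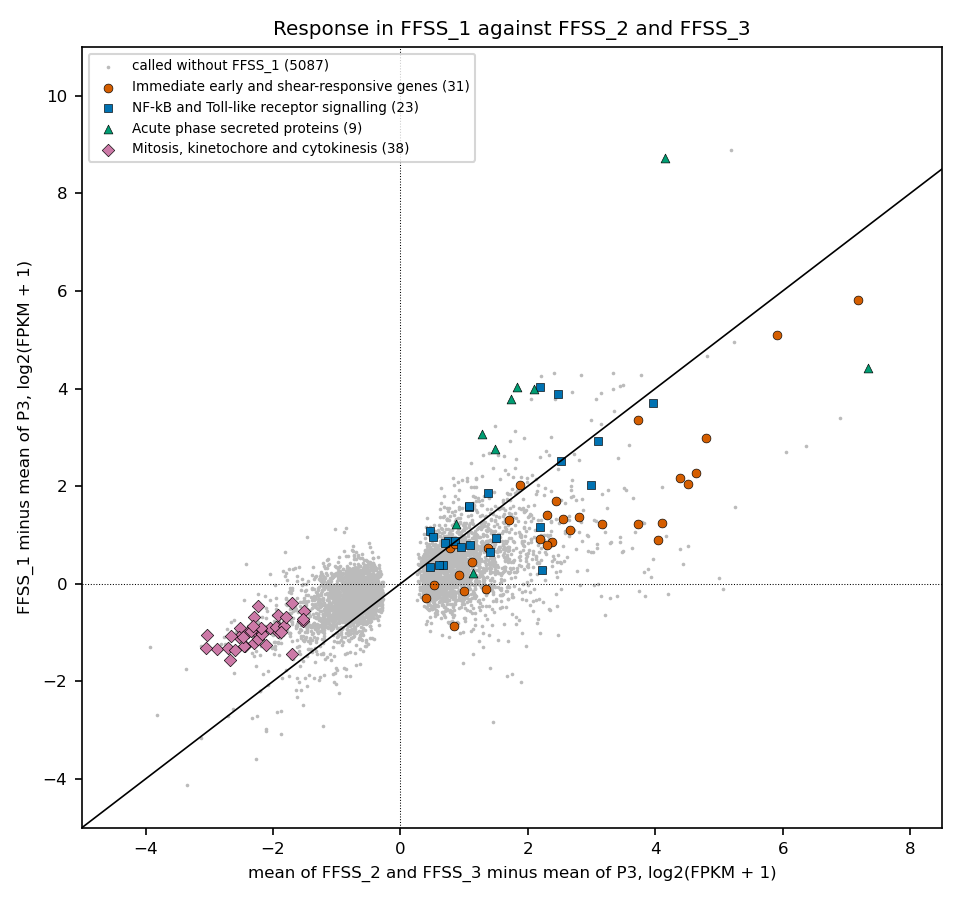
Each point is 1 of the 5087 genes called without FFSS replicate 1, with the mean of FFSS replicates 2 and 3 minus the P3 mean on the horizontal axis and FFSS replicate 1 minus the P3 mean on the vertical axis, both in log2(FPKM + 1), and the diagonal marks equal differences. Mitosis genes lie between zero and the diagonal, most immediate early genes lie below the diagonal, NF-kB genes scatter around it, and most acute phase genes lie above it.

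Immediate early genes moved together under flow. Of 34 tested genes of the list, 25 were called higher, against 12.2% of all genes. In 27 all FFSS libraries lay above all P3 libraries, against 20.8% of all genes. The list's median log2 change was 1.90. Fosb and Fos, which pair with Jun proteins to form the transcription factor AP-1, led it. Fosb was at 0.566, 0.562 and 0.398 FPKM in P3 and 83.7, 237 and 201 FPKM in FFSS, a log2 change of 6.73 (SE 0.33, limma adjusted p = 8.47e-06), the largest rise of any gene with at least 10 FPKM in a group. Fos was at 3.37, 3.83 and 3.50 FPKM in P3 and 154, 302 and 245 FPKM in FFSS, a log2 change of 5.63 (SE 0.26, limma adjusted p = 7.69e-06). The FFSS and P3 ranges of both were far apart, with FFSS replicate 1 the lowest of its group. Nr4a1, an orphan nuclear receptor induced within minutes by many stimuli, was at 9.32, 10.4 and 7.06 FPKM in P3 and 99.9, 138 and 122 FPKM in FFSS, a log2 change of 3.61 (SE 0.18, limma adjusted p = 8.47e-06). Its relative Nr4a2 was at 2.82, 2.75 and 2.75 FPKM in P3 and 14.4, 12.1 and 13.6 FPKM in FFSS, a log2 change of 1.92 (SE 0.14, limma adjusted p = 0.0001). For Nr4a2, unlike the other 3, FFSS replicate 1 was the highest library.

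Other called members included the Egr factors Egr1, Egr2 and Egr3, the Jun proteins Jun and Junb, the Krüppel-like factors Klf2, Klf4 and Klf10, and the MAP kinase phosphatases Dusp1, Dusp5 and Dusp10, which switch off the kinases upstream of these genes. In most of the list FFSS replicate 1 moved less than the other FFSS libraries. Its median position over the 25 called genes was 49.3%, and the list median was 1.01 for it alone and 2.31 for the mean of replicates 2 and 3. Among 31 members called without it, it lay between the groups in 25, within or past the P3 range in 5 and as far as the nearer of replicates 2 and 3 in 1. Egr1, chosen as an example after its values were seen, shows the common pattern. It was at 7.56, 6.12 and 9.85 FPKM in P3 and 68.3, 286 and 205 FPKM in FFSS, a log2 change of 4.20 (SE 0.47, limma adjusted p = 0.00106), with FFSS replicate 1 well above P3 but below the others. Promoters of this list were searched for the cyclic AMP response element, TGACGTCA, on both strands of the 250 bases before the start. Of 17 called members with a promoter in RefSeq, 3 held it (Ier2, Dusp1 and Btg2), and so did 1.59% of all 33469 promoters.

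Genes of the NF-kB and Toll-like receptor pathway also rose together, and here FFSS replicate 1 stood close to the others. Of 29 tested genes, 23 were called higher, with a list median of 0.89. The smallest adjusted p of the list belonged to Nfkbiz and Nfkbia. Nfkbiz, an inducible nuclear member of the IkB family, was at 2.56, 1.88 and 3.06 FPKM in P3 and 44.2, 55 and 50.8 FPKM in FFSS, a log2 change of 3.87 (SE 0.15, limma adjusted p = 4.13e-06). Nfkbia, the inhibitor IkB alpha, was at 9.47, 7.65 and 9.0 FPKM in P3 and 72.9, 81.9 and 81.7 FPKM in FFSS, a log2 change of 3.04 (SE 0.12, limma adjusted p = 4.13e-06). Tnfaip3, the ubiquitin-editing enzyme A20, was at 1.84, 1.78 and 1.86 FPKM in P3 and 15.2, 14.2 and 16.5 FPKM in FFSS, a log2 change of 2.52 (SE 0.12, limma adjusted p = 8.47e-06). In each the 3 FFSS libraries lay close together and several-fold above P3. The subunits Nfkb1, Nfkb2, Rela, Relb and Rel were called too, as were the receptors Tlr2, Tlr3 and Tlr4 and the adaptor Myd88. Of these, Nfkb2 was not called with no filter, with the 6 libraries fitted alone or after rescaling to library totals, and Tlr3 not with the 6 libraries alone (limma adjusted p = 0.0551 to 0.0889). The gene with the smallest p of all 12424, Zc3h12a, encodes an RNase that degrades cytokine transcripts. It lies outside the list and was at 5.95, 5.30 and 5.52 FPKM in P3 and 62.6, 57 and 58.1 FPKM in FFSS, a log2 change of 3.19 (SE 0.11, limma adjusted p = 2.66e-06).

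FFSS replicate 1 had a median position of 94.7% over the called NF-kB genes, against 49.3% for the immediate early genes. It stood at 94.7% for Nfkbia, 93.6% for Nfkbiz and 99.9% for Tnfaip3. Cd14, the co-receptor for bacterial lipopolysaccharide, was less even. Its values were 8.76, 8.80 and 9.86 FPKM in P3 and 39.9, 94.3 and 67.5 FPKM in FFSS, a log2 change of 2.67 (SE 0.26, limma adjusted p = 0.000565), with FFSS replicate 1 at 67.2%. Cd14 is also a marker of macrophages. The 13 leukocyte markers in the table summed to 10.1 to 12.1 FPKM in P3 and 43.0 to 108 FPKM in FFSS, most of it from Cd14. Ptprc, the pan-leukocyte antigen, did not exceed 0.0400 FPKM in any of the 6 libraries. Csf1r and Lyz2, other macrophage genes, did not pass the filter. Csf1r was at 0.083, 0.0182 and 0.187 FPKM in P3 and 0.084, 3.17 and 2.08 FPKM in FFSS. Lyz2 was at 0.222, 0.305 and 0.171 FPKM in P3 and 0.0562, 5.36 and 2.94 FPKM in FFSS. Both lay above P3 in FFSS replicates 2 and 3 and not in replicate 1. Adgre1, also of macrophages, did not exceed 0.0222 FPKM. Cd68, a lysosomal protein of macrophages, was at 0.533, 0.643 and 0.873 FPKM in P3 and 2.16, 2.60 and 2.11 FPKM in FFSS, a log2 change of 0.97 (SE 0.18, limma adjusted p = 0.00701). The part of such cells in the rise of Cd14 was not tested. In bulk RNA, a change in the number of cells of a type and a change in RNA per cell cannot be told apart.

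The start regions of the leading NF-kB genes were read for exact matches to the kappa-B consensus of NF-kB, in the variants shown in capitals below, on both strands of the 250 bases before the gene start. Sequences are from RefSeq, build GRCr8, a later build than that of the deposited table. Of 33469 promoters, 0.164% held such a site. Among the 23 called NF-kB genes, 19 had a promoter in the set and 4 held a site (Nfkb2, Nfkbia, Nfkbiz and Tnfaip3). Of the 6 called chemokines, 5 had a promoter and Cxcl1 held a site. A match is a description of the sequence and not evidence of binding. The last 100 bases before the start are printed for Nfkbia, Nfkbiz, Tnfaip3 and Cxcl1, with the site in capitals. It reads as its reverse complement where it lies on the other strand. They are chr6:78597073-78597172 (minus strand), chr11:58251621-58251720 (plus strand), chr1:15543980-15544079 (minus strand) and chr14:17479322-17479421 (minus strand).
Nfkbia: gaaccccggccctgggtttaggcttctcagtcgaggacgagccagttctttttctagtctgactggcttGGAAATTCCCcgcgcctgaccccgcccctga
Nfkbiz: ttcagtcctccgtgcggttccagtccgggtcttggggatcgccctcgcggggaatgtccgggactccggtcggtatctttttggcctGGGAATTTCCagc
Tnfaip3: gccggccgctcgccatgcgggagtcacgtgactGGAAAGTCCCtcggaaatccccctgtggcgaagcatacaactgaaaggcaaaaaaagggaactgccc
Cxcl1: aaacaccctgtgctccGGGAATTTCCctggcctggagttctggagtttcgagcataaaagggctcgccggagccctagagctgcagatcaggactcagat
The sites begin 31, 13, 67 and 84 bases before the start, in that order. Their genes rose by 3.04, 3.87, 2.52 and 3.94 on the log2 scale.

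Chemokines, the secreted proteins that attract leukocytes, were among the most abundant products to rise. Of 9 tested ligands 6 were called higher, Ccl2, Ccl7, Ccl20, Cxcl1, Cxcl10 and Cxcl16, with a list median of 2.43. Ccl2, which attracts monocytes, was at 29.1, 34.9 and 21.3 FPKM in P3 and 891, 1250.2 and 946 FPKM in FFSS, a log2 change of 5.14 (SE 0.24, limma adjusted p = 7.69e-06). Cxcl1, which attracts neutrophils, was at 27.1, 26 and 32.6 FPKM in P3 and 570.2, 396 and 405 FPKM in FFSS, a log2 change of 3.94 (SE 0.29, limma adjusted p = 0.000127). Cxcl16, a membrane-bound chemokine, was at 2.37, 1.87 and 2.94 FPKM in P3 and 21.1, 13.8 and 17.4 FPKM in FFSS, a log2 change of 2.43 (SE 0.18, limma adjusted p = 0.000125). None of the 3 overlapped between groups. FFSS replicate 1 reached or passed the nearer of the other FFSS libraries in 5 of the 6 called ligands, with a median position of 135%. Ccl7, a neighbour of Ccl2 in the genome, shows the excess in replicate 1. It was at 11, 18.7 and 11.1 FPKM in P3 and 274, 74.5 and 134 FPKM in FFSS, a log2 change of 3.32 (SE 0.44, limma adjusted p = 0.00201).

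Of 11 tested interleukins and cytokines, 7 were called higher, with a list median of 1.05. Leave-one-out fits gave 4 higher with P3 replicates 2 or 3 or FFSS replicate 2 dropped. Il6, the cytokine of the acute phase response, was at 1.14, 2.01 and 1.04 FPKM in P3 and 12.6, 18.9 and 12.6 FPKM in FFSS, a log2 change of 2.71 (SE 0.25, limma adjusted p = 0.000495). Lif, another member of the interleukin-6 family, was at 7.52, 11.2 and 4.47 FPKM in P3 and 26.1, 60.04 and 50.7 FPKM in FFSS, a log2 change of 2.41 (SE 0.35, limma adjusted p = 0.00302), and Csf1, the growth factor of macrophages, at 47, 47.5 and 47.5 FPKM in P3 and 80.4, 143 and 121 FPKM in FFSS, a log2 change of 1.22 (SE 0.25, limma adjusted p = 0.00993). Clcf1 had a log2 change of 1.05 (limma adjusted p = 0.00644). Clcf1 belongs to the same cytokine family as Il6. Il6 was similar in the 3 FFSS libraries, while FFSS replicate 1 was lowest for Lif and Csf1, at 62% and 51.6%. In the synthesis of prostaglandins, Ptges, the terminal enzyme for prostaglandin E, was at 1.74, 2.14 and 2.76 FPKM in P3 and 62.4, 23.5 and 41.1 FPKM in FFSS, a log2 change of 3.66 (SE 0.31, limma adjusted p = 0.000334). Of 12 tested genes of that list 4 were called higher. Fits with 1 library left out gave 2 higher with P3 replicate 1 dropped. Ptgs2, the inducible cyclooxygenase upstream of Ptges, was at 16.1, 18.2 and 13.8 FPKM in P3 and 24.8, 72.2 and 59.3 FPKM in FFSS, a log2 change of 1.52 (SE 0.34, limma adjusted p = 0.0152). The call of Ptgs2 was lost without P3 replicates 1 or 3 or FFSS replicate 3 (limma adjusted p = 0.0524 to 0.0592). The replicates went opposite ways in these enzymes: FFSS replicate 1 was the highest of its group for Ptges and the lowest for Ptgs2. Ptgfr, the receptor of prostaglandin F, and Hpgd, which degrades prostaglandins, were the other called members. Ptgfr had a log2 change of 1.04 (limma adjusted p = 0.00367) and Hpgd of 0.95 (adjusted p = 0.0145). The call of Hpgd was lost without P3 replicates 1 or 2 (limma adjusted p = 0.0581 to 0.0633).

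Secreted proteins of the acute phase rose, and among the lists tested they had the highest median position of FFSS replicate 1. Of 11 tested genes 8 were called higher. Among these, Lcn2 and Chi3l1 were under 1 FPKM in every P3 library and passed the filter through FFSS alone, so their direction was largely set by it. Leaving out single libraries gave 4 higher with P3 replicates 1 or 2 or FFSS replicate 3 dropped. Changing other settings gave 4 higher with a filter of 5 FPKM or with the 6 libraries fitted alone and 5 with voom on fragments. The list median was 3.78 for FFSS replicate 1 alone and 1.48 for the mean of replicates 2 and 3, and the median position of the called genes was 200%. Lcn2, a protein that sequesters bacterial iron carriers, was at 0.446, 0.245 and 0.152 FPKM in P3 and 539, 1.78 and 184 FPKM in FFSS, a log2 change of 5.68 (SE 1.55, limma adjusted p = 0.0306). Its FFSS values ran from just above P3 in replicate 2 to far above it in replicate 1, and the call was lost without P3 replicates 1, 2 or 3 or FFSS replicate 3 (limma adjusted p = 0.0815 to 0.105). Slpi, an inhibitor of neutrophil proteases that is no member of the list, had the same order of libraries at 2.24, 0.424 and 3.96 FPKM in P3 and 1353, 25.1 and 407 FPKM in FFSS, a log2 change of 6.42 (SE 1.19, limma adjusted p = 0.00723). With voom on fragments neither Lcn2 nor Slpi was called (limma adjusted p = 0.383 and 0.0835). Serpina3n, a serine protease inhibitor, had the opposite order at 1.86, 0.496 and 2.85 FPKM in P3 and 53.4, 510.1 and 327 FPKM in FFSS, a log2 change of 6.36 (SE 0.72, limma adjusted p = 0.00106). Chi3l1, a secreted glycoprotein of joint tissue, was at 0.0723, 0 and 0.0741 FPKM in P3 and 15.6, 1.84 and 6.11 FPKM in FFSS, a log2 change of 2.73 (SE 0.51, limma adjusted p = 0.00767), and Cp, the copper carrier ceruloplasmin, at 4.05, 4.25 and 5.02 FPKM in P3 and 35.9, 9.74 and 20.3 FPKM in FFSS, a log2 change of 1.91 (SE 0.37, limma adjusted p = 0.00873). Both again peaked in FFSS replicate 1.

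Complement genes rose in part. Of 9 tested genes 6 were called higher and 1, Cd55, which limits complement on the cell surface, was called lower. With 1 library left out there were 3 higher with P3 replicates 1 or 2 or FFSS replicate 3 dropped and none lower with P3 replicates 1, 2 or 3 or FFSS replicate 3 dropped. C1r, a protease of the first complement component, was at 81.1, 63.8 and 89.9 FPKM in P3 and 264, 198 and 213 FPKM in FFSS, a log2 change of 1.52 (SE 0.16, limma adjusted p = 0.000724). Its partner C1s was at 13.7, 5.34 and 20.5 FPKM in P3 and 173, 49.9 and 88.9 FPKM in FFSS, a log2 change of 2.88 (SE 0.50, limma adjusted p = 0.00586). FFSS replicate 1 was highest for both, at positions of 126% and 156%. Serping1, the inhibitor of these proteases, was at 2.07, 0.883 and 2.37 FPKM in P3 and 36, 4.07 and 14.7 FPKM in FFSS, a log2 change of 2.41 (SE 0.59, limma adjusted p = 0.0205). The call of Serping1 was lost without P3 replicates 1 or 2 or FFSS replicate 3 (limma adjusted p = 0.0579 to 0.0771), and with voom on fragments (limma adjusted p = 0.0535). Masp1, a protease of the lectin branch, was even across the FFSS libraries at 11.6, 10.4 and 13.4 FPKM in P3 and 33, 37.2 and 39.3 FPKM in FFSS, a log2 change of 1.56 (SE 0.22, limma adjusted p = 0.00283).

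Genes of antigen presentation and interferon responses were called in part. Of 15 tested genes of antigen processing, 6 were called higher and 1 lower, with a list median of 0.52. The fits that left out 1 library gave 2 lower with FFSS replicate 1 dropped. B2m, the light chain of class I molecules, was at 196, 205 and 201 FPKM in P3 and 431, 366 and 341 FPKM in FFSS, a log2 change of 0.91 (SE 0.12, limma adjusted p = 0.0017). Tap1, which carries peptides into the endoplasmic reticulum, was at 2.94, 3.19 and 2.93 FPKM in P3 and 7.36, 7.07 and 7.66 FPKM in FFSS, a log2 change of 1.06 (SE 0.12, limma adjusted p = 0.00099). Tapbp had a log2 change of 1.42 (limma adjusted p = 0.00151). Tapbp, or tapasin, links Tap1 to class I molecules. The FFSS libraries were close together for Tap1, and FFSS replicate 1 was highest for B2m. RT1-T24-1, a class I gene of a family of near-identical copies whose counts are uncertain, fell from 3.82, 3.43 and 4.09 FPKM in P3 to 1.05, 0.301 and 0.295 FPKM in FFSS, a log2 change of -1.66 (SE 0.21, limma adjusted p = 0.00156). Of 19 tested interferon-stimulated genes 6 were called higher. Without single libraries the counts were 10 higher with FFSS replicate 2 dropped and 3 lower with FFSS replicate 1 dropped. Under other settings there were 2 higher with a filter of 5 FPKM. Irf1, a transcription factor of that response, was at 3.17, 2.98 and 3.61 FPKM in P3 and 9.54, 22.5 and 15.4 FPKM in FFSS, a log2 change of 1.91 (SE 0.25, limma adjusted p = 0.00199), and Ifi44 at 0.563, 0.618 and 0.808 FPKM in P3 and 3.85, 4.16 and 4.01 FPKM in FFSS, a log2 change of 1.59 (SE 0.16, limma adjusted p = 0.000599). Ifi35 had a log2 change of 1.48 (limma adjusted p = 0.00312) and Rtp4 of 1.15 (adjusted p = 0.00497). The list median was 1.13 for FFSS replicate 1 and 0.33 for the other FFSS libraries, although Irf1 itself was lowest in replicate 1.

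**Figure D3:**
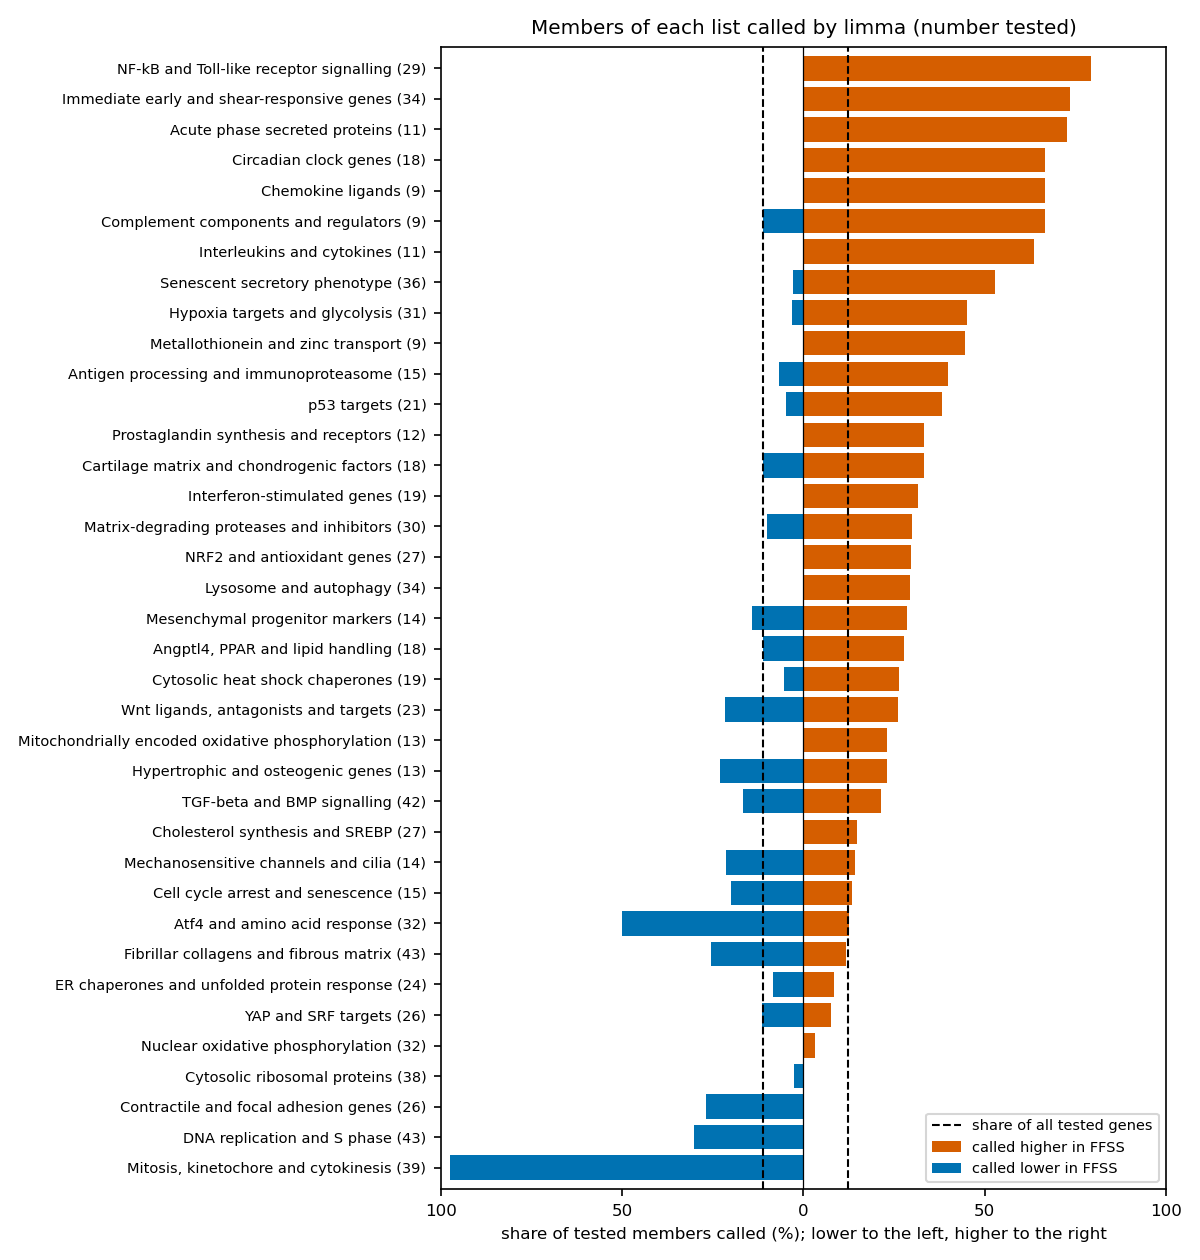
Share of the tested members of each list called higher (to the right) or lower (to the left) in FFSS, in percent, with the number tested beside each name and dashed lines at the shares over all tested genes, 12.2% and 11.1%. The NF-kB list has the highest share called higher and the mitosis list the highest share called lower.

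Metallothioneins, small proteins that bind zinc and copper, rose to some of the highest levels of the comparison. Of 9 tested genes of metallothionein and zinc transport, 4 were called higher. Mt2A was at 92.1, 73.9 and 103 FPKM in P3 and 2277, 3017 and 2114 FPKM in FFSS, a log2 change of 4.76 (SE 0.17, limma adjusted p = 2.66e-06). Mt1 was at 16, 14.9 and 9.93 FPKM in P3 and 214, 119 and 133 FPKM in FFSS, a log2 change of 3.40 (SE 0.24, limma adjusted p = 9.11e-05), and Mt1m at 0.884, 0.194 and 0.181 FPKM in P3 and 18.1, 11.9 and 9.36 FPKM in FFSS, a log2 change of 3.30 (SE 0.27, limma adjusted p = 0.000226). Slc39a8, a zinc importer of the plasma membrane, was at 2.67, 2.86 and 3.41 FPKM in P3 and 39.5, 30.05 and 31.3 FPKM in FFSS, a log2 change of 3.11 (SE 0.16, limma adjusted p = 1.23e-05). The groups of all 4 were far apart, with a median position of FFSS replicate 1 of 118%. Mt1m passed the filter through FFSS alone, so its direction was largely set by the filter. Mt1 and Mt1m were less even within FFSS and highest in replicate 1. Reads of near-identical metallothionein copies can be shared between rows, so these calls may not be independent. The Mt1m row of the deposited table lies on chromosome 20 (3677474 to 3677847). In the deposited table Mt1 lies on chromosome 17 (78793336 to 78793724) and Mt2A on chromosome 19 (11307967 to 11308740), build Rnor_6.0, while RefSeq places Mt1 beside Mt2A on chromosome 19. The row beside Mt2A in the deposited table is AC128848.1 (chromosome 19, 11302125 to 11302938), noted after its values were seen. It was at 49, 43.4 and 72.6 FPKM in P3 and 907, 615 and 576 FPKM in FFSS, a log2 change of 3.65 (SE 0.24, limma adjusted p = 7.64e-05).

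The promoter of Mt2A is printed because metallothionein genes are known to carry metal response elements. These were searched as TGCGCNC and TGCACNC on both strands, a loose pattern that 20.6% of all 33469 promoters hold in the same 250 bases. Mt2A holds 4 matches, in capitals below, which begin 220 to 55 bases before the start. The stretch is chr19:10838709-10838958 of GRCr8, minus strand.
Mt2A: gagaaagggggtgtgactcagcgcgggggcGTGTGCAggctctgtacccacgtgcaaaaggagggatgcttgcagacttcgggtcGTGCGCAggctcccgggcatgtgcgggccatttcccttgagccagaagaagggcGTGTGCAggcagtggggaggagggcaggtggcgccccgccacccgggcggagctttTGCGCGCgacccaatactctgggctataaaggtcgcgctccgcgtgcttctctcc
No such match lies in the same window of Slc39a8, which says only that these letters are not there.

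Antioxidant genes regulated by NRF2 were called in part, 8 of 27 higher, with a list median of 0.32. Leave-one-out fits gave 1 lower with FFSS replicate 1 dropped. Gpx3, a secreted glutathione peroxidase, was at 615, 565 and 670.3 FPKM in P3 and 2309, 3560.0 and 2826 FPKM in FFSS, a log2 change of 2.21 (SE 0.24, limma adjusted p = 0.000913), and was the most abundant of them. Osgin1, an oxidative stress response gene, was at 0.66, 0.46 and 0.983 FPKM in P3 and 3.33, 7.03 and 4.73 FPKM in FFSS, a log2 change of 1.79 (SE 0.25, limma adjusted p = 0.00248). Gsta4 had a log2 change of 1.39 (limma adjusted p = 0.00182). Gsta4 encodes a glutathione transferase. Gpx3 and Osgin1 were lowest in FFSS replicate 1 within FFSS, at positions of 80.6% and 67.8%. Of 19 cytosolic heat shock genes 5 were called higher and 1 lower. Fits with 1 library left out gave 2 higher with P3 replicate 3 or FFSS replicate 3 dropped, 3 with P3 replicates 1 or 2 or FFSS replicate 2 dropped, 8 with FFSS replicate 1 dropped, none lower with P3 replicates 1, 2 or 3, FFSS replicate 3 or P9 replicate 2 dropped, 2 with FFSS replicate 2 dropped, and 3 with FFSS replicate 1 or P9 replicate 1 dropped. Hspa1b, an inducible chaperone of the Hsp70 family with a near-identical copy, was at 1.75, 2.69 and 1.52 FPKM in P3 and 10.6, 63.1 and 39.4 FPKM in FFSS, a log2 change of 3.40 (SE 0.52, limma adjusted p = 0.00372), and its partner Dnajb1 at 36, 40.9 and 34.2 FPKM in P3 and 59.6, 120.3 and 91.9 FPKM in FFSS, a log2 change of 1.22 (SE 0.23, limma adjusted p = 0.00755). Replicate 1 stood at 48.1% and 45.5%. Bag3 had a log2 change of 0.82 (limma adjusted p = 0.0154) and Hspb8 of 0.36 (adjusted p = 0.027). The call of Bag3 was lost without P3 replicates 1 or 3 or FFSS replicate 3 (limma adjusted p = 0.0547 to 0.0575). The call of Hspb8 was lost without P3 replicates 1, 2 or 3 or FFSS replicates 2 or 3 (limma adjusted p = 0.0625 to 0.105). Bag3 and Hspb8 work together in clearing misfolded proteins. The heat shock element was also searched, in the 250 bases before the start. Of the 5 heat shock genes called higher, 4 had a promoter in the set and 0 held a match. Of all 33469 promoters, 0.663% held it, so a count over so few genes cannot decide whether the list differs. Among 24 chaperones and regulators of the endoplasmic reticulum, 2 were called higher and 2 lower, shares below those of all genes. Leaving out single libraries gave none higher with P3 replicates 1 or 3 dropped, 1 with P3 replicate 2, FFSS replicates 2 or 3 or P9 replicate 3 dropped, 5 with FFSS replicate 1 dropped, 1 lower with P3 replicate 2 dropped, 4 with P9 replicate 1 dropped, and 6 with FFSS replicate 1 dropped. Atf6 had a log2 change of -0.77 (limma adjusted p = 0.00629), Syvn1 of -0.51 (adjusted p = 0.0107), Sdf2l1 of 0.67 (adjusted p = 0.0158) and Manf of 0.55 (adjusted p = 0.0411). The call of Syvn1 was lost without P3 replicate 2 (limma adjusted p = 0.0516). The call of Sdf2l1 was lost without P3 replicates 1 or 3 (limma adjusted p = 0.0521 to 0.0669). The call of Manf was lost without P3 replicates 1, 2 or 3, FFSS replicates 2 or 3 or P9 replicate 3 (limma adjusted p = 0.0606 to 0.141). Atf6 is a sensor of unfolded protein, and Syvn1 a ubiquitin ligase of the same compartment.

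Genes of mitosis fell almost as a whole. Of 39 tested genes 38 were called lower, against 11.1% of all tested genes. In all 39 every FFSS library lay below every P3 library, against 22.5% of all tested genes. The list's median log2 change was -1.83. Mki67, a nuclear protein of dividing cells, was at 13.5, 13.7 and 12.4 FPKM in P3 and 5.88, 0.875 and 2.40 FPKM in FFSS, a log2 change of -2.01 (SE 0.38, limma adjusted p = 0.00756). Cenpe, a motor protein of the kinetochore, was at 8.20, 8.98 and 6.76 FPKM in P3 and 2.27, 1.41 and 2.11 FPKM in FFSS, a log2 change of -1.62 (SE 0.16, limma adjusted p = 0.000599). Aurka, a kinase of the spindle poles, was at 8.72, 10.9 and 8.62 FPKM in P3 and 3.35, 1.54 and 1.26 FPKM in FFSS, a log2 change of -1.83 (SE 0.23, limma adjusted p = 0.00174), and Anln, a scaffold of the cleavage furrow, at 44.4, 51.7 and 39.7 FPKM in P3 and 14.6, 4.84 and 7.90 FPKM in FFSS, a log2 change of -2.30 (SE 0.30, limma adjusted p = 0.00191). Cenpf had a log2 change of -1.94 (limma adjusted p = 0.00389). Cenpf is another kinetochore protein. The lowest count of genes called lower with 1 library left out was 30. FFSS replicate 1 fell less than the other FFSS libraries in this group. In all 38 genes called without it, it lay between the P3 range and the nearer of the other FFSS libraries. The list median was -0.98 for FFSS replicate 1 and -2.23 for the others, and the median position was 44.5%.

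Genes of DNA replication and S phase fell less evenly, with 13 of 43 called lower and a list median of -0.81. With 1 library left out there were 1 higher with FFSS replicate 1 dropped, 3 lower with P3 replicates 1 or 2 or FFSS replicate 3 dropped, 5 with P3 replicate 3 dropped, 7 with P9 replicates 2 or 3 dropped, 8 with FFSS replicate 2 dropped, and 31 with FFSS replicate 1 dropped. Other settings gave 5 lower with no filter on low values or with the 6 libraries fitted alone. Ccne1, the cyclin that opens S phase, was at 8.80, 10.2 and 9.85 FPKM in P3 and 5.99, 4.11 and 4.55 FPKM in FFSS, a log2 change of -0.86 (SE 0.14, limma adjusted p = 0.00481). Rrm1, a subunit of the enzyme that makes deoxyribonucleotides, was at 28.5, 29.2 and 28.6 FPKM in P3 and 18.6, 6.63 and 9.35 FPKM in FFSS, a log2 change of -1.36 (SE 0.28, limma adjusted p = 0.0109). For Rrm1 FFSS replicate 1 lay below P3 but well above the other FFSS libraries. Orc1 had a log2 change of -0.88 (limma adjusted p = 0.00755) and Gins3 of -0.83 (adjusted p = 0.0146). The call of Gins3 was lost without P3 replicates 1 or 2 or FFSS replicate 3 (limma adjusted p = 0.0538 to 0.0647). Both take part in loading the replication machinery. The median of all 43 was -0.15 in FFSS replicate 1 and -1.01 in the others. Ccnd1, the cyclin of early G1 phase, fell alike in all 3 FFSS libraries, at 135, 128 and 141 FPKM in P3 and 48.8, 55.6 and 51.8 FPKM in FFSS, a log2 change of -1.35 (SE 0.11, limma adjusted p = 0.000334).

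Inhibitors of the cell cycle did not move in 1 direction. Of 15 tested genes of arrest and senescence, 2 were called higher and 3 lower, against 12.2% and 11.1% of all tested genes. The fits that left out 1 library gave 1 higher with P3 replicates 1, 2 or 3, FFSS replicates 2 or 3 or P9 replicate 3 dropped and 6 with FFSS replicate 1 dropped. Cdkn1a, which encodes p21, was at 79.7, 96.7 and 64.4 FPKM in P3 and 67.2, 284 and 202 FPKM in FFSS, a log2 change of 0.98 (SE 0.44, limma adjusted p = 0.14), and was not called. Its value in FFSS replicate 1 lay within the range of P3 while replicates 2 and 3 were higher than every P3 library. Without FFSS replicate 1 its adjusted p from limma was 0.000788. Cdkn2a, the locus of p16 and p19, was at 6.65, 7.77 and 6.22 FPKM in P3 and 2.85, 5.25 and 5.66 FPKM in FFSS, a log2 change of -0.53 (SE 0.20, limma adjusted p = 0.0886), and was not called. Cdkn2b, which encodes p15, fell, at 18.5, 20.2 and 17.5 FPKM in P3 and 8.15, 13.2 and 10.2 FPKM in FFSS, a log2 change of -0.80 (SE 0.17, limma adjusted p = 0.011). Cdkn1c, which encodes p57, rose, at 1.65, 0.852 and 3.35 FPKM in P3 and 5.73, 9.98 and 8.11 FPKM in FFSS, a log2 change of 1.66 (SE 0.31, limma adjusted p = 0.00733). Lmnb1, the lamin whose loss is a known sign of senescence, was at 18.4, 17.3 and 16.1 FPKM in P3 and 8.62, 0.895 and 4.98 FPKM in FFSS, a log2 change of -1.94 (SE 0.48, limma adjusted p = 0.0204). The call of Lmnb1 was lost without P3 replicates 1, 2 or 3 (limma adjusted p = 0.0575 to 0.0688), and with the P3 and FFSS libraries fitted alone (limma adjusted p = 0.0587). Its relative Lmnb2 was at 12.8, 12 and 13.5 FPKM in P3 and 7.44, 2.89 and 3.71 FPKM in FFSS, a log2 change of -1.36 (SE 0.27, limma adjusted p = 0.00883). Both lamins fell least in FFSS replicate 1.

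Of 21 targets of p53 8 were called higher and 1 lower, with a list median of 0.48. Without single libraries the counts were 3 higher with P3 replicate 1 dropped, 4 with P3 replicates 2 or 3 or FFSS replicate 3 dropped, 14 with FFSS replicate 1 dropped, and none lower with P3 replicates 1, 2 or 3, FFSS replicates 2 or 3 or P9 replicates 1 or 2 dropped. Gadd45a, a stress sensor that slows the cell cycle, was at 90.1, 95.4 and 88.9 FPKM in P3 and 262, 394 and 333 FPKM in FFSS, a log2 change of 1.82 (SE 0.20, limma adjusted p = 0.000966). Btg2, an antiproliferative protein that is also an immediate early gene, was at 8.05, 8.49 and 7.70 FPKM in P3 and 36.6, 259 and 165 FPKM in FFSS, a log2 change of 3.70 (SE 0.58, limma adjusted p = 0.00399). Plk2 had a log2 change of 1.77 (limma adjusted p = 0.0066) and Xpc of 0.48 (adjusted p = 0.0152). The call of Xpc was lost without P3 replicates 1, 2 or 3 (limma adjusted p = 0.0515 to 0.0641). Plk2 is a polo-like kinase and Xpc recognises DNA damage. The list median was 0.01 in FFSS replicate 1 and 0.61 in the other FFSS libraries, and in 6 of the 15 targets called without replicate 1 it lay within or past the P3 range. Factors of the secretory phenotype of senescent cells, a list that shares members with the chemokine, cytokine and protease lists, gave 19 of 36 called higher and 1 lower. Leave-one-out fits gave 2 lower with P3 replicate 3 or FFSS replicates 1 or 2 dropped. Angptl4, a secreted inhibitor of lipoprotein lipase that belongs to this list, was at 11.6, 10.7 and 12.2 FPKM in P3 and 196, 112 and 137 FPKM in FFSS, a log2 change of 3.55 (SE 0.21, limma adjusted p = 3.37e-05), with replicate 1 highest.

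In metabolism, genes of amino acid synthesis and tRNA charging fell. Of 32 tested genes of the Atf4 and amino acid response, 16 were called lower and 4 higher, with a list median of -0.36. Psat1 of serine synthesis was at 37.1, 37.5 and 41.7 FPKM in P3 and 17.3, 13.9 and 16.4 FPKM in FFSS, a log2 change of -1.24 (SE 0.13, limma adjusted p = 0.000759). Asns, asparagine synthetase, was at 66.2, 71 and 64.7 FPKM in P3 and 35.7, 35.2 and 34.1 FPKM in FFSS, a log2 change of -0.92 (SE 0.11, limma adjusted p = 0.0011). Eprs and Wars, which charge tRNA with glutamate, proline and tryptophan, had log2 changes of -0.85 and -0.97 (limma adjusted p = 0.0011 and 0.00125). FFSS replicate 1 fell nearly as far as the others in Psat1 and Asns, with positions of 86% for Psat1 and 95.5% for Asns. The members that rose were Slc38a2, Ddit4, Cebpb and Ppp1r15a, respectively an amino acid transporter, an inhibitor of mTORC1, a transcription factor and a phosphatase subunit. Fits with 1 library left out gave 2 higher with P3 replicates 1, 2 or 3 or FFSS replicates 2 or 3 dropped and 7 with FFSS replicate 1 dropped. The call of Cebpb was lost without P3 replicates 1, 2 or 3, FFSS replicates 1, 2 or 3 or P9 replicate 2 (limma adjusted p = 0.0501 to 0.14), and that of Ppp1r15a was lost without P3 replicates 1, 2 or 3 or FFSS replicates 2 or 3 (limma adjusted p = 0.0556 to 0.08).

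Of 31 tested hypoxia targets and enzymes of glycolysis, 14 were called higher and 1 lower, with a list median of 0.39. Leaving out single libraries gave 6 higher with P3 replicate 2 dropped, 8 with P3 replicates 1 or 3 dropped, none lower with P3 replicates 1, 2 or 3, FFSS replicates 2 or 3 or P9 replicates 1, 2 or 3 dropped, and 2 with FFSS replicate 1 dropped. Changing other settings gave 9 higher with no filter on low values. Hif1a, the oxygen-regulated transcription factor, was at 24.8, 27.3 and 26.1 FPKM in P3 and 53.1, 60.4 and 62 FPKM in FFSS, a log2 change of 1.13 (SE 0.14, limma adjusted p = 0.00153). Pfkfb3, which makes the activator of phosphofructokinase, was at 4.29, 3.95 and 4.96 FPKM in P3 and 10.5, 12.7 and 12.7 FPKM in FFSS, a log2 change of 1.26 (SE 0.13, limma adjusted p = 0.000693). Ldha, lactate dehydrogenase, was at 325, 315 and 352 FPKM in P3 and 588, 686 and 579 FPKM in FFSS, a log2 change of 0.90 (SE 0.11, limma adjusted p = 0.00163). In each the FFSS libraries were close together. Car9, a carbonic anhydrase known as a hypoxia marker, was at 2.72, 4.25 and 2.13 FPKM in P3 and 10.8, 15.5 and 14 FPKM in FFSS, a log2 change of 1.86 (SE 0.21, limma adjusted p = 0.000966).

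Of 13 mitochondrially encoded genes of oxidative phosphorylation 3 were called higher, while few nuclear genes of the pathway or of the ribosome were called. COX1, a subunit of cytochrome oxidase, was at 4942, 5369 and 5294 FPKM in P3 and 8979, 10841 and 8559 FPKM in FFSS, a log2 change of 0.86 (SE 0.16, limma adjusted p = 0.00685). ATP8 had a log2 change of 0.78 (limma adjusted p = 0.00828), COX2 of 0.81 (adjusted p = 0.0149) and COX3 of 0.54 (adjusted p = 0.0652). The call of COX2 was lost without P3 replicates 1 or 3 (limma adjusted p = 0.0568 to 0.0676). COX3 was not called. With no filter on low values, COX1 and COX2 were not called either (limma adjusted p = 0.24 and 0.137). Of 32 nuclear genes of the pathway, Ndufa4 was the member called higher, at 119, 103 and 123 FPKM in P3 and 188, 185 and 169 FPKM in FFSS, a log2 change of 0.65 (SE 0.15, limma adjusted p = 0.0171). The call of Ndufa4 was lost without P3 replicates 1 or 2 (limma adjusted p = 0.0553 to 0.0707). With 1 library left out there were none higher with P3 replicates 1 or 2 dropped, 2 with FFSS replicate 1 or P9 replicate 1 dropped, and 3 lower with FFSS replicate 1 dropped. Ndufb10 had a log2 change of 0.45 (limma adjusted p = 0.092), Tfam of -0.32 (adjusted p = 0.115) and Cox7a2 of 0.42 (adjusted p = 0.134). None of these 3 was called. Of 38 cytosolic ribosomal protein genes 1 was called lower and 0 higher. The fits that left out 1 library gave none lower with P3 replicates 1, 2 or 3, FFSS replicates 2 or 3 or P9 replicate 2 dropped and 9 with FFSS replicate 1 dropped. For the 38 genes the median was 0.10 in FFSS replicate 1 and -0.31 in the other FFSS libraries. Rpl3 had a log2 change of -0.45 (limma adjusted p = 0.105), Rps20 of -0.45 (adjusted p = 0.146) and Rpl7 of -0.34 (adjusted p = 0.157). Rpl3, Rps20 and Rpl7 were not called.

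Of 34 tested lysosomal and autophagy genes 10 were called higher. Without single libraries the counts were 4 higher with P3 replicates 1 or 2 or FFSS replicate 3 dropped, 5 with P3 replicate 3 or FFSS replicate 2 dropped, 6 with P9 replicate 2 dropped, and 17 with FFSS replicate 1 dropped. Under other settings there were 6 higher with no filter on low values and 5 with the replicate number fitted as a block. Ctsh, a lysosomal protease, was at 133, 141 and 146 FPKM in P3 and 552, 779.9 and 597 FPKM in FFSS, a log2 change of 2.17 (SE 0.14, limma adjusted p = 6.34e-05), and Hexa, a glycosidase, at 109, 111 and 114 FPKM in P3 and 160.0, 205 and 179 FPKM in FFSS, a log2 change of 0.69 (SE 0.12, limma adjusted p = 0.0055). Ctsh was several-fold higher in every FFSS library. Gla had a log2 change of 0.61 (limma adjusted p = 0.00602) and Sqstm1 of 0.53 (adjusted p = 0.00643). Gla is another lysosomal glycosidase and Sqstm1 an autophagy receptor. In lipid handling 5 of 18 genes were called higher and 2 lower. Leave-one-out fits gave 1 lower with P3 replicates 1 or 3 or FFSS replicate 3 dropped. Plin2, the coat protein of lipid droplets, was at 22.3, 16.4 and 22.6 FPKM in P3 and 51.6, 57 and 59.1 FPKM in FFSS, a log2 change of 1.42 (SE 0.15, limma adjusted p = 0.000724). Fabp3, a fatty acid carrier, went the other way at 45.2, 49.4 and 44.1 FPKM in P3 and 17.4, 4.05 and 7.76 FPKM in FFSS, a log2 change of -2.34 (SE 0.39, limma adjusted p = 0.0054). Klf15 had a log2 change of 0.85 (limma adjusted p = 0.0056). Klf15 is a transcription factor of nutrient metabolism. Of 27 genes of cholesterol synthesis and uptake 4 were called higher, against 12.2% of all tested genes. Fits with 1 library left out gave 1 higher with P3 replicates 1 or 2 dropped and 2 with FFSS replicates 2 or 3 or P9 replicate 2 dropped. Other settings gave 2 higher with a pseudocount of 0.1 or with no filter on low values or with the 6 libraries fitted alone. Stard4, a cholesterol carrier, was at 5.78, 4.17 and 7.34 FPKM in P3 and 11.2, 20.5 and 19.7 FPKM in FFSS, a log2 change of 1.41 (SE 0.27, limma adjusted p = 0.00828). Ebp had a log2 change of 0.74 (limma adjusted p = 0.0166), Dhcr7 of 1.63 (adjusted p = 0.0478) and Insig1 of 1.15 (adjusted p = 0.0483). The call of Ebp was lost without P3 replicates 1 or 2 (limma adjusted p = 0.0519 to 0.063). The call of Dhcr7 was lost without P3 replicates 1, 2 or 3, FFSS replicates 2 or 3 or P9 replicates 1, 2 or 3 (limma adjusted p = 0.0552 to 0.154). The call of Insig1 was lost without P3 replicates 1 or 2, FFSS replicates 2 or 3 or P9 replicate 2 (limma adjusted p = 0.0694 to 0.154). Ebp and Dhcr7 are enzymes of cholesterol synthesis, and Insig1 restrains the pathway. The sterol response element was searched in the 250 bases before the start. Of the 4 cholesterol genes called higher, 3 had a promoter in the set and 0 held a match. Of all 33469 promoters, 0.105% held it, so this count is too small to decide whether the list differs.

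Cartilage genes split. Of 18 tested genes of cartilage matrix and chondrogenic factors, 6 were called higher and 2 lower, with a list median of 0.56. Leaving out single libraries gave 1 lower with P3 replicates 1 or 2 dropped. Changing other settings gave 3 higher with a filter of 5 FPKM. Acan fell in all FFSS libraries, from 128, 135 and 122 FPKM in P3 to 29.3, 48.2 and 43.2 FPKM in FFSS, a log2 change of -1.68 (SE 0.18, limma adjusted p = 0.000759). FFSS replicate 1 had the least Acan, at a position of 142%. Sox9 rose from 4.72, 4.79 and 4.06 FPKM to 15.3, 9.81 and 13 FPKM, a log2 change of 1.29 (SE 0.19, limma adjusted p = 0.00312), with replicate 1 highest. Sox5 and Sox6, its partners in cartilage, were called higher as well, Sox6 not with a pseudocount of 0.1 or with no filter (limma adjusted p = 0.059 and 0.0606). Matn4, a matrilin of the matrix, was at 1.64, 1.30 and 1.42 FPKM in P3 and 14, 4.97 and 8.66 FPKM in FFSS, a log2 change of 1.96 (SE 0.28, limma adjusted p = 0.00291). Gdf5, a growth factor of joint formation, was at 0.178, 0.0487 and 0 FPKM in P3 and 2.29, 1.43 and 1.31 FPKM in FFSS, a log2 change of 1.30 (SE 0.19, limma adjusted p = 0.00322). The median position of FFSS replicate 1 over the 8 called genes was 138%.

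Among genes of hypertrophy and bone formation, 3 of 13 were called higher and 3 lower. Sp7, osterix, was at 18, 17.2 and 14.2 FPKM in P3 and 1.07, 3.0 and 4.64 FPKM in FFSS, a log2 change of -2.27 (SE 0.45, limma adjusted p = 0.00904), and Dlx3, a homeobox factor of bone, at 3.07, 3.76 and 3.07 FPKM in P3 and 0.917, 0.916 and 0.41 FPKM in FFSS, a log2 change of -1.31 (SE 0.25, limma adjusted p = 0.00856). Runx1 was at 20.6, 21.6 and 17 FPKM in P3 and 34.7, 31.4 and 34.2 FPKM in FFSS, a log2 change of 0.74 (SE 0.15, limma adjusted p = 0.00899). Spp1, osteopontin, was abundant at 634, 523 and 749 FPKM in P3 and 1463, 1144 and 1148 FPKM in FFSS, a log2 change of 0.98 (SE 0.19, limma adjusted p = 0.00924). Mmp13, the collagenase of hypertrophic cartilage, is described with the proteases. Sp7 fell furthest in FFSS replicate 1, at a position of 164%.

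In the fibrous matrix more genes fell than rose, with 11 of 43 called lower and 5 higher. With 1 library left out there were 14 higher with FFSS replicate 1 dropped and 5 lower with P3 replicates 1 or 2 dropped. Under other settings there were 6 lower with no filter on low values. Col1a1, the main chain of type I collagen and among the most abundant transcripts, was at 9759, 10290.4 and 9283 FPKM in P3 and 4988, 3804 and 4452 FPKM in FFSS, a log2 change of -1.15 (SE 0.16, limma adjusted p = 0.00215). With no filter on low values Col1a1 was not called (limma adjusted p = 0.111). Col5a1 was at 739, 778 and 656 FPKM in P3 and 322, 219.7 and 292 FPKM in FFSS, a log2 change of -1.39 (SE 0.19, limma adjusted p = 0.0021). Fbn2, a fibrillin of elastic fibres, was at 12.4, 9.01 and 13.5 FPKM in P3 and 3.55, 0.923 and 2.80 FPKM in FFSS, a log2 change of -1.96 (SE 0.33, limma adjusted p = 0.00557). Emilin1, an elastic fibre glycoprotein, rose instead, at 57.3, 46.5 and 64.7 FPKM in P3 and 256, 174 and 209 FPKM in FFSS, a log2 change of 1.90 (SE 0.20, limma adjusted p = 0.000759). Over the list the median was -0.25 in FFSS replicate 1 and 0.06 in the others.

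Proteases that cut this matrix rose in part, with 9 of 30 called higher and 3 lower. The fits that left out 1 library gave 4 higher with P3 replicates 1 or 2 dropped, 5 with FFSS replicate 3 dropped, 14 with FFSS replicate 1 dropped, and 6 lower with FFSS replicate 1 dropped. Other settings gave 5 higher with a filter of 5 FPKM. Mmp2, a gelatinase, was at 671, 599 and 703 FPKM in P3 and 1999.9, 1539 and 1648 FPKM in FFSS, a log2 change of 1.39 (SE 0.14, limma adjusted p = 0.000631). Mmp3, stromelysin, was at 10.4, 4.97 and 18.6 FPKM in P3 and 56.4, 33 and 42.3 FPKM in FFSS, a log2 change of 2.0 (SE 0.38, limma adjusted p = 0.008). Mmp13 was at 0.254, 0.167 and 0.755 FPKM in P3 and 3.65, 17.8 and 14.7 FPKM in FFSS, a log2 change of 3.02 (SE 0.46, limma adjusted p = 0.00347). Mmp13 passed the filter through FFSS alone, so its direction was largely set by the filter. FFSS replicate 1 was the highest FFSS library for Mmp2 and Mmp3 and the lowest for Mmp13, at 48.3%. Adamts1, a protease of proteoglycans, fell, at 113, 129 and 101 FPKM in P3 and 53.9, 32.1 and 44.6 FPKM in FFSS, a log2 change of -1.40 (SE 0.18, limma adjusted p = 0.00181).

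Genes of the contractile apparatus were lower in part. Of 26 tested genes 7 were called lower. Without single libraries the counts were 1 higher with FFSS replicate 1 dropped, 1 lower with P3 replicate 1 dropped, 2 with P3 replicate 2 dropped, 3 with FFSS replicate 3 dropped, and 4 with P9 replicate 3 dropped. Changing other settings gave 3 lower with no filter on low values. Actg2, an actin of smooth muscle, was at 136, 216 and 66.4 FPKM in P3 and 9.51, 32.5 and 19.5 FPKM in FFSS, a log2 change of -2.71 (SE 0.48, limma adjusted p = 0.00602). Its P3 values spread over 3-fold and still lay above every FFSS value, with replicate 1 lowest. Acta1 had a log2 change of -2.16 (limma adjusted p = 0.0126), Tln1 of -0.92 (adjusted p = 0.0174) and Flna of -0.66 (adjusted p = 0.0246). The call of Acta1 was lost without P3 replicate 1 (limma adjusted p = 0.051). The call of Tln1 was lost without P3 replicates 1 or 2 (limma adjusted p = 0.0628 to 0.063). The call of Flna was lost without P3 replicates 1, 2 or 3 or FFSS replicates 2 or 3 (limma adjusted p = 0.0507 to 0.0866). These encode a muscle actin, the integrin adaptor talin and filamin A. Of 26 tested targets of YAP and SRF, 2 were called higher and 3 lower, against 12.2% and 11.1% of all tested genes. Leave-one-out fits gave 1 higher with P3 replicates 1 or 3 or FFSS replicates 2 or 3 dropped, 6 with FFSS replicate 1 dropped, and 1 lower with P3 replicates 1 or 2 or FFSS replicate 3 dropped. Dlc1 had a log2 change of 1.36 (limma adjusted p = 0.00271), Lats2 of 0.63 (adjusted p = 0.0283) and Crim1 of -0.74 (adjusted p = 0.0292). The call of Lats2 was lost without P3 replicates 1 or 3 or FFSS replicates 2 or 3 (limma adjusted p = 0.0742 to 0.101). The call of Crim1 was lost without P3 replicates 1 or 2 or FFSS replicates 2 or 3 (limma adjusted p = 0.0559 to 0.106). Lats2 is a kinase that restrains YAP. Among 14 mechanosensitive channels and cilia genes, 2 were called higher and 3 lower, against the same shares of all tested genes. Fits with 1 library left out gave 1 lower with P3 replicates 1, 2 or 3 or FFSS replicate 3 dropped. Kcnk2, the stretch-activated potassium channel TREK-1, was at 2.36, 3.15 and 2.59 FPKM in P3 and 9.49, 30.7 and 21.6 FPKM in FFSS, a log2 change of 2.41 (SE 0.34, limma adjusted p = 0.00273). Piezo1, a stretch-activated cation channel, was at 106, 104 and 99.2 FPKM in P3 and 74.3, 66.2 and 75.3 FPKM in FFSS, a log2 change of -0.51 (SE 0.11, limma adjusted p = 0.011). The call of Piezo1 was lost without P3 replicate 1 (limma adjusted p = 0.0544). Tmem63a had a log2 change of 0.62 (limma adjusted p = 0.00577) and Kcnk1 of -0.89 (adjusted p = 0.0155). The call of Kcnk1 was lost without P3 replicates 2 or 3 or FFSS replicate 3 (limma adjusted p = 0.0542 to 0.0642). Both encode ion channels.

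Markers of mesenchymal progenitors gave 4 of 14 higher and 2 lower. Leaving out single libraries gave 2 higher with P3 replicates 1, 2 or 3 or FFSS replicate 3 dropped and 4 lower with FFSS replicate 1 dropped. Under other settings there were 2 higher with no filter on low values. Cspg4, the proteoglycan NG2, fell evenly, at 79.9, 74 and 77.1 FPKM in P3 and 25.7, 21.2 and 25.3 FPKM in FFSS, a log2 change of -1.64 (SE 0.11, limma adjusted p = 7.64e-05), and Mcam was at 14.9, 20.5 and 11.8 FPKM in P3 and 4.84, 7.52 and 6.42 FPKM in FFSS, a log2 change of -1.19 (SE 0.22, limma adjusted p = 0.00787). Pdgfra, a receptor of platelet-derived growth factor, was at 14.9, 13.2 and 17.8 FPKM in P3 and 46.1, 26.8 and 34.9 FPKM in FFSS, a log2 change of 1.16 (SE 0.20, limma adjusted p = 0.00602), and Pdgfrb at 108, 111 and 97.8 FPKM in P3 and 148, 186 and 191 FPKM in FFSS, a log2 change of 0.72 (SE 0.13, limma adjusted p = 0.00685). FFSS replicate 1 was the highest FFSS library for Pdgfra and the lowest for Pdgfrb.

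In TGF-beta and BMP signalling, 9 of 42 genes were called higher and 7 lower. With 1 library left out there were 5 higher with FFSS replicate 3 dropped, 3 lower with P3 replicates 1 or 2 dropped, and 4 with FFSS replicates 2 or 3 or P9 replicate 2 dropped. Other settings gave 4 lower with no filter on low values or with the 6 libraries fitted alone. Fst, which binds activins, was at 11, 12.6 and 13 FPKM in P3 and 43.1, 102 and 87.5 FPKM in FFSS, a log2 change of 2.48 (SE 0.27, limma adjusted p = 0.000913), and the co-receptor Tgfbr3 at 5.50, 4.79 and 5.98 FPKM in P3 and 10.8, 18.1 and 17.3 FPKM in FFSS, a log2 change of 1.32 (SE 0.19, limma adjusted p = 0.00273). Id2 had a log2 change of 1.15 (limma adjusted p = 0.0056). Id2 is a target of BMP signals. In Wnt signalling 6 of 23 genes were called higher and 5 lower. The fits that left out 1 library gave 1 higher with P3 replicate 1 or FFSS replicate 3 dropped, 2 with P3 replicate 2 dropped, 3 with P3 replicate 3 or P9 replicate 2 dropped, and 3 lower with P3 replicate 2 dropped. Changing other settings gave 3 higher with no filter on low values or with the 6 libraries fitted alone and 2 lower with a filter of 5 FPKM. Lef1, a nuclear partner of beta-catenin, was at 3.59, 3.46 and 3.57 FPKM in P3 and 1.06, 0.479 and 0.757 FPKM in FFSS, a log2 change of -1.38 (SE 0.16, limma adjusted p = 0.0012). Wif1, a secreted inhibitor, was at 1.27, 1.59 and 1.57 FPKM in P3 and 3.43, 3.03 and 3.72 FPKM in FFSS, a log2 change of 0.83 (SE 0.17, limma adjusted p = 0.00988). All 3 FFSS values of Wif1 lay above P3 and close together. Wnt10b had a log2 change of -1.02 (limma adjusted p = 0.00837). Wnt10b is a Wnt ligand.

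Most clock genes rose. Of 18 tested genes 12 were called higher, with a list median of 1.40 and a median position of FFSS replicate 1 of 58.8%. Nr1d1, the repressor REV-ERB alpha, was at 8.82, 11.5 and 8.93 FPKM in P3 and 40.8, 143 and 101 FPKM in FFSS, a log2 change of 2.99 (SE 0.38, limma adjusted p = 0.00167). Bhlhe40, a repressor that answers many stimuli, was at 28.6, 30.8 and 28.9 FPKM in P3 and 94.2, 208 and 159 FPKM in FFSS, a log2 change of 2.28 (SE 0.25, limma adjusted p = 0.000985). Dbp, an output factor of the clock, was at 4.90, 6.43 and 4.46 FPKM in P3 and 15.9, 24.2 and 17.6 FPKM in FFSS, a log2 change of 1.68 (SE 0.23, limma adjusted p = 0.00249). Nr1d2 had a log2 change of 1.37 (limma adjusted p = 0.00198). Nr1d2 encodes REV-ERB beta. FFSS replicate 1 was the lowest FFSS library for Nr1d1, Bhlhe40, Dbp and Nr1d2. Sampling times are not given in the sources used here.

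**Figure D4:**
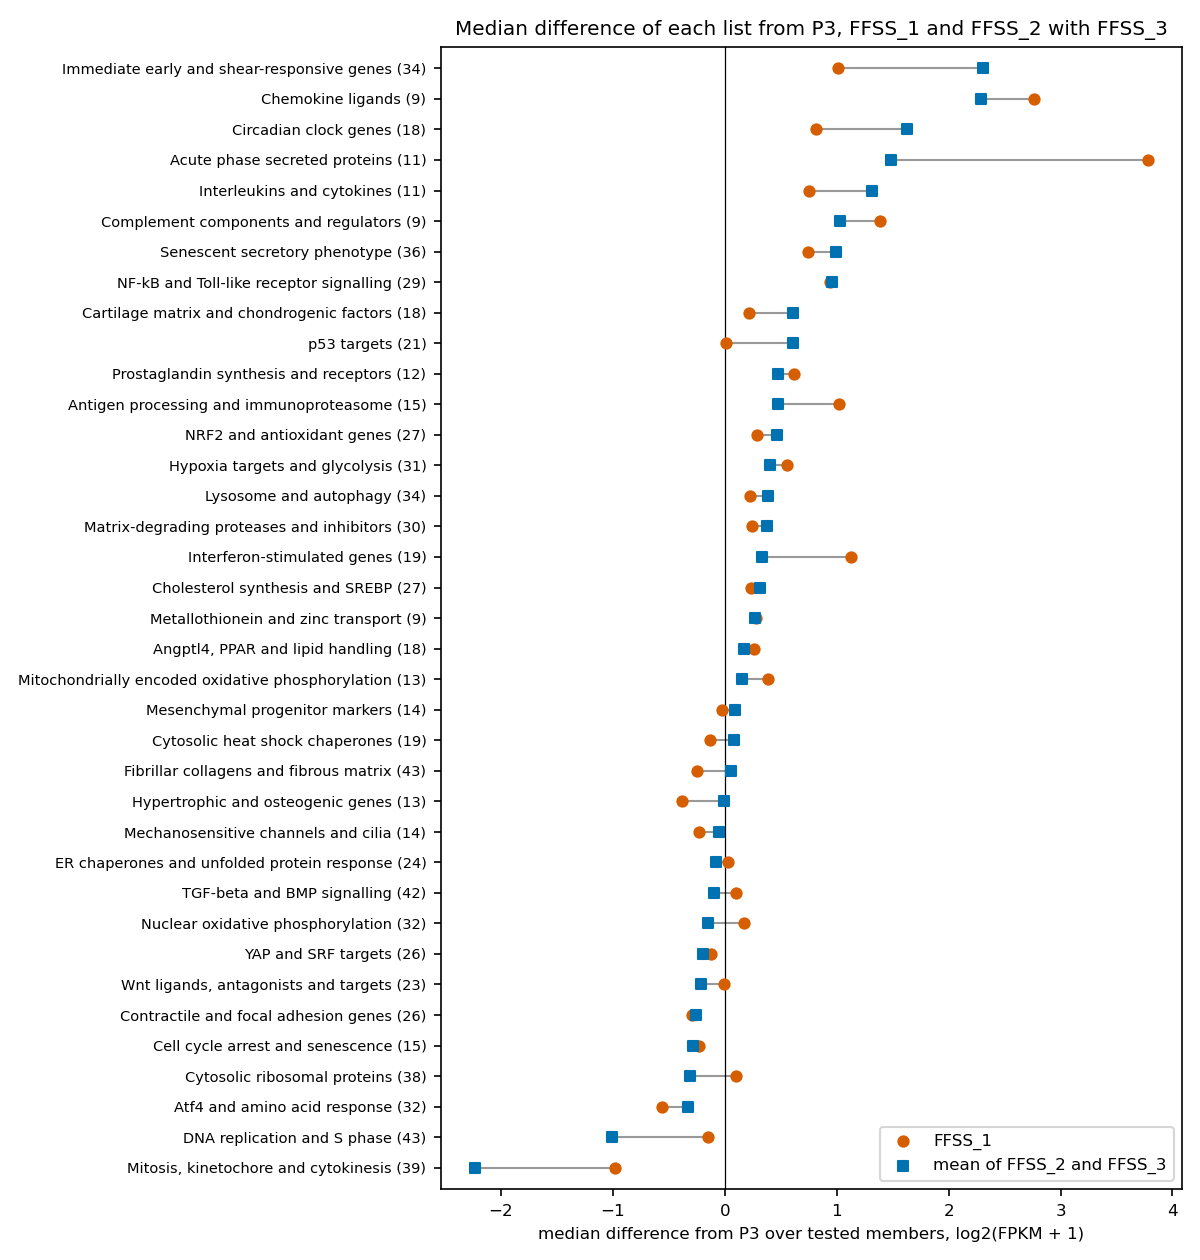
Median difference from the P3 mean over the tested members of each list, in log2(FPKM + 1), for FFSS replicate 1 (circles) and for the mean of FFSS replicates 2 and 3 (squares), with the number of members in brackets. The immediate early, clock, DNA replication and mitosis lists lie nearer to 0 in replicate 1, the acute phase and interferon lists lie further from 0 there, and the NF-kB and metallothionein lists nearly coincide.

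Outside the lists, the largest falls among genes of at least 10 FPKM in a group were in Dynap, Dio3 and Plekha7. Dynap, a dynactin-associated membrane protein, was at 16.5, 12.6 and 21 FPKM in P3 and 0, 1.03 and 0.431 FPKM in FFSS, a log2 change of -3.60 (SE 0.31, limma adjusted p = 0.000336). Dio3, the enzyme that inactivates thyroid hormone, has a row annotated as a pseudogene and was at 23.1, 23.5 and 21.1 FPKM in P3 and 2.66, 0.296 and 1.16 FPKM in FFSS, a log2 change of -3.44 (SE 0.32, limma adjusted p = 0.000495). Plekha7, a protein of cell junctions, was at 13.9, 19.3 and 9.71 FPKM in P3 and 0.659, 0.556 and 0.825 FPKM in FFSS, a log2 change of -3.14 (SE 0.21, limma adjusted p = 7.64e-05), and Pkp1, plakophilin of desmosomes, at 57.3, 66.9 and 50.1 FPKM in P3 and 8.90, 8.41 and 8.53 FPKM in FFSS, a log2 change of -2.61 (SE 0.13, limma adjusted p = 8.47e-06). For Plekha7 and Pkp1 the FFSS libraries were nearly equal, with positions of 101% and 97.6%. Ifi27l2b was at 185, 229 and 176 FPKM in P3 and 79.8, 14 and 32.2 FPKM in FFSS, a log2 change of -2.52 (SE 0.57, limma adjusted p = 0.015), and its call was lost without P3 replicate 2 or FFSS replicate 3 (limma adjusted p = 0.0503 to 0.057). AABR07065531.1, annotated as a microRNA gene of 80 bases, was at 15.7, 29 and 16.9 FPKM in P3 and 7.52, 0.858 and 0 FPKM in FFSS, a log2 change of -3.05 (SE 0.68, limma adjusted p = 0.014), and its call was lost without P3 replicate 2 (limma adjusted p = 0.057). Among the largest rises, AC128059.1 and AC128059.4, neighbouring protein-coding rows on chromosome 8 with no gene name, were at 0, 0.187 and 0 FPKM in P3 and 10.2, 164 and 95.3 FPKM in FFSS and at 0, 0.37 and 0 FPKM in P3 and 6.26, 79.5 and 65.9 FPKM in FFSS. Their log2 changes were 5.73 and 4.93 (limma adjusted p = 0.00251 and 0.00382), with FFSS replicate 1 far below the other FFSS libraries. With voom on fragments neither row was called (limma adjusted p = 0.111 and 0.101).

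Some genes in which FFSS replicate 1 stood furthest from the others were not called with it. Nupr1l1, a stress-induced chromatin regulator with a copy of the same symbol elsewhere in the table, was at 2.27, 1.81 and 1.59 FPKM in P3 and 1.67, 143 and 62.9 FPKM in FFSS, a log2 change of 3.34 (SE 1.19, limma adjusted p = 0.0731). Vamp1, a protein of vesicle fusion, was at 0.98, 1.38 and 1.16 FPKM in P3 and 1.35, 88.6 and 52.8 FPKM in FFSS, a log2 change of 3.37 (SE 1.10, limma adjusted p = 0.0562). In both, replicate 1 lay within the range of P3. The adjusted p from limma without FFSS replicate 1 was 4.76e-05 for Nupr1l1 and 7.6e-06 for Vamp1. The genes of this paragraph were picked among genes called without replicate 1, so a value under 0.05 was fixed by the choice. C1qtnf3, a secreted protein of cartilage, was at 56, 61.7 and 44.1 FPKM in P3 and 6.69, 181 and 121 FPKM in FFSS, a log2 change of 0.03 (SE 1.04, limma adjusted p = 0.989), below P3 in replicate 1 and above it in the others. Cyp1b1, an oxidase induced through the aryl hydrocarbon receptor, was at 41.5, 34.3 and 46 FPKM in P3 and 63.7, 4.56 and 23.9 FPKM in FFSS, a log2 change of -0.99 (SE 0.70, limma adjusted p = 0.327), above P3 in replicate 1 and below it in the others. With all libraries, neither C1qtnf3 nor Cyp1b1 was called. AABR07063638.1, a row annotated as a microRNA gene, was at 3.78, 5.53 and 2.58 FPKM in P3 and 3.18, 133 and 57 FPKM in FFSS, a log2 change of 2.73 (SE 1.09, limma adjusted p = 0.102), with replicate 1 within the P3 range.

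Genes that mark other cell types were read beside these results. S100b, a marker of glia that cartilage cells also express, was at 26.7, 14.3 and 28 FPKM in P3 and 81.8, 88 and 63.3 FPKM in FFSS, a log2 change of 1.76 (SE 0.26, limma adjusted p = 0.00312). The glial list summed to 15.5 to 29.0 FPKM in P3 and 65.1 to 90.02 FPKM in FFSS, nearly all of it S100b, while Sox10 did not exceed 0.0444 FPKM. The osteoclast list summed to 127 to 137 FPKM in P3 and 138 to 390.4 FPKM in FFSS, mostly Ctsk, and Calcr, Dcstamp and Ocstamp were at 0 in all 6 libraries. Ctsk had a log2 change of 0.88 (limma adjusted p = 0.073) and Acp5 of 0.62 (adjusted p = 0.0215). The call of Acp5 was lost without P3 replicates 1 or 2 or FFSS replicate 2 (limma adjusted p = 0.0565 to 0.0847). The endothelial list summed to 13.8 to 14.2 FPKM in P3 and 17.3 to 21.8 FPKM in FFSS, and Egfl7 had a log2 change of 0.41 (limma adjusted p = 0.19), which was not called. The adipocyte list summed to 12.4 to 13.5 FPKM in P3 and 14.4 to 22.0 FPKM in FFSS. Fabp4, a fatty acid carrier of adipocytes, was at 0.595, 0.652 and 0.508 FPKM in P3 and 2.11, 14.2 and 8.68 FPKM in FFSS, a log2 change of 2.28 (SE 0.48, limma adjusted p = 0.0112), and Adipoq did not exceed 0.166 FPKM. The muscle list summed to 8.71 to 19.1 FPKM in P3 and 10.2 to 40.4 FPKM in FFSS. Tnnt3 had a log2 change of 1.96 (limma adjusted p = 0.0154). The call of Tnnt3 was lost without P3 replicates 1 or 2 or FFSS replicate 3 (limma adjusted p = 0.0569 to 0.0597). Tnnt3 is a troponin of skeletal muscle. The epithelial list summed to 0.513 to 3.83 FPKM in P3 and 0.468 to 2.78 FPKM in FFSS, and Krt7 had a log2 change of -0.67 (limma adjusted p = 0.344), which was not called. Fibroblasts of synovium and tendon share genes with these cells, and their list summed to 1407 to 1557 FPKM in P3 and 2013 to 2703 FPKM in FFSS. Tnmd, tenomodulin, was at 2.68, 0.652 and 2.13 FPKM in P3 and 12.5, 7.26 and 7.47 FPKM in FFSS, a log2 change of 1.88 (SE 0.31, limma adjusted p = 0.00479). Cd55 had a log2 change of -1.52 (limma adjusted p = 0.0217), Fmod of 0.78 (adjusted p = 0.243) and Prg4 of 1.21 (adjusted p = 0.369). The call of Cd55 was lost without P3 replicates 1, 2 or 3 or FFSS replicate 3 (limma adjusted p = 0.0579 to 0.0732). Fmod and Prg4 were not called. The part of any such cells in the changes of the other lists was not tested.

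The title of the series names the microRNA miR-708-5p, whose gene lies in an intron of Tenm4 in mammals. Tenm4 encodes a teneurin, a protein of the cell membrane. It was at 2.07, 1.78 and 2.13 FPKM in P3 and 0.282, 0.0723 and 0.165 FPKM in FFSS, a log2 change of -1.36 (SE 0.16, limma adjusted p = 0.00119), and lay below P3 in every FFSS library. Tenm4 passed the filter through P3 alone, so its direction was largely set by the filter. Its gene spans chromosome 1, 161401527 to 161880923, in Rnor_6.0. The Mir708 row, a gene of 88 bases at 161221246 to 161221333 of the same chromosome, was at 2.25 FPKM in P3 replicate 1 and listed at 0 in the other 5 libraries. In the annotation of the deposited table the rows do not overlap. Libraries of poly(A) RNA do not measure the mature microRNA, which was not analysed here. Its sequence in RefSeq is printed with the seed, bases 2 to 8, in capitals.
rno-miR-708-5p: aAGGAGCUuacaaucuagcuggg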

How the data were processed

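Values are FPKM as deposited by the authors, in 1 table of 34267 genes and 9 libraries. HISAT2 2.0.5, featureCounts 1.5.0-p3 and the build Rnor_6.0 are named in the submitters' processing notes, without settings or strandedness. In P3 and FFSS, all nonzero values are whole multiples of 1 fragment (tolerance 0.01), so library sizes were rebuilt. A fragment on a gene of 1 kb equals 0.0661 to 0.0725 FPKM and 3 fragments equal 0.198 to 0.218 FPKM, for counting error only.

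Genes of at least 1 FPKM in at least 3 of the P3 and FFSS libraries were fitted as log2(FPKM + 1) with limma 3.58.1 (R 4.3.3), with group means over all 9 libraries, a mean-dependent prior variance and Benjamini-Hochberg adjustment over 12424 genes. P9 libraries entered the spread alone. Named genes were 12 fixed genes, the 8 largest called changes each way of at least 10 FPKM without overlap, and up to 4 members of each list by adjusted p. Also named were the 4 genes each way, among genes called without FFSS replicate 1, in which that library stood furthest from the others. A few genes that this rule names are not reported here. The members and lists were chosen with earlier results of these data known. The fit was tested on simulated data. Alternatives were the pseudocount, the filter, 6 libraries alone, rescaling to library totals, voom on fragments, a replicate block and leaving out each library. Tables were made with Python 3.11.15, NumPy 2.4.6, pandas 2.3.3 and matplotlib 3.10.9.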

Additional observations from a re-analysis of the deposited data

How the results depend on the processing

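Counts of genes called higher and lower, 1512 and 1382, were 1425 and 1303 with a pseudocount of 0.1, 1343 and 1110 with no filter, 1155 and 1053 with a filter of 5 FPKM, 1126 and 961 with the P3 and FFSS libraries alone, 1525 and 1292 after rescaling to library totals, and 1415 and 1418 with voom on fragments. A minimum log2 change of 1 left 638 and 402. Leaving out 1 library gave 699 to 2548 higher and 567 to 2539 lower, the most without FFSS replicate 1. A fit with the replicate number as a block gave 1225 and 1084. With it, counts higher were 5 against 10 in the lysosome list, 3 against 5 for cytosolic heat shock genes, 2 against 4 for cholesterol synthesis, and 1 against 2 for the endoplasmic reticulum, cell cycle arrest and YAP lists. Counts lower were 4 against 7 for TGF-beta and BMP signalling and 0 against 1 for heat shock genes, and 1 DNA replication gene was called higher against 0. Deviations of P3 and FFSS libraries of the same number correlated at -0.02, 0.03 and -0.07. What a shared number means is not stated, and with 3 libraries a group these values cannot decide whether it pairs them. The median position of FFSS replicate 1, 69.4%, was 69.2% with a pseudocount of 0.1, 69.0% after rescaling and 41.0% over the genes called without it. Leaving out any other P3 or FFSS library, an alternative chosen after seeing the data, gave 64.8% to 75.7%. Array weights were not run because they did not converge. Depth limits genes under about 3 fragments, and only 3 libraries a group limit the rest. Of 212 genes named in the text, 185 were called, and 138 of these kept their call under each of these settings that gave the gene a value, the minimum log2 change aside. Among the genes named, 2 that were not called changed direction. The log2 change of C1qtnf3 was -0.016 with a pseudocount of 0.1, -0.021 with voom, and -0.83 to 1.45 with 1 library left out. That of Cxcl12 was -0.12 with voom and -0.37 to 2.02 with 1 library left out.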

Other observations

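Some genes were high in FFSS replicate 1 and not in replicate 2, and others were the reverse. All were chosen after their values were seen, and all are given as values with no test of the difference between libraries. In 35 genes of at least 10 FPKM the level in replicate 1 was at least 4-fold that of the highest P3 library while replicate 2 was under 2-fold the P3 mean, both on the FPKM + 1 scale, and in each of the genes named next replicate 3 lay between them. C3, the central complement component, was at 0.0637, 0 and 0 FPKM in P3 and 74.9, 0.86 and 26.3 FPKM in FFSS. Cxcl6, a chemokine for neutrophils, was at 0.244, 0.0447 and 0.334 FPKM in P3 and 92.4, 0.549 and 36.1 FPKM in FFSS. Ptx3, a pentraxin of innate immunity, was at 3.06, 2.34 and 3.98 FPKM in P3 and 95.2, 1.43 and 34.3 FPKM in FFSS. Epas1, the oxygen-regulated factor HIF-2 alpha, was at 1.11, 1.16 and 1.27 FPKM in P3 and 24.7, 1.49 and 9.30 FPKM in FFSS, and Stc1, a secreted regulator of calcium and phosphate, at 0.761, 0.626 and 0.992 FPKM in P3 and 35.6, 0.646 and 12.9 FPKM in FFSS. Cxcl12, a chemokine of stromal cells, was at 3.33, 3.28 and 3.82 FPKM in P3 and 29.3, 0.101 and 9.90 FPKM in FFSS, so that replicates 1 and 2 lay on opposite sides of P3.

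In 24 genes replicates 2 and 3 were both at least 4-fold the highest P3 library, on the same scale, and replicate 1 lay within the range of P3 or under it. Gdf15, a stress-induced secreted factor, was at 3.05, 4.06 and 2.08 FPKM in P3 and 2.35, 48.7 and 34.6 FPKM in FFSS. Fgf21, a hormone of metabolic stress, was at 0.422, 1.27 and 0.864 FPKM in P3 and 0.64, 35.5 and 15.5 FPKM in FFSS. Ogn, osteoglycin of the matrix, was at 4.47, 4.60 and 4.22 FPKM in P3 and 3.56, 84.8 and 68.7 FPKM in FFSS, and Tnfrsf11b, the decoy receptor osteoprotegerin, at 68.7, 73.5 and 67.8 FPKM in P3 and 60.3, 468 and 319 FPKM in FFSS. Akr1b1, aldose reductase, which makes sorbitol, was at 165, 197 and 130.3 FPKM in P3 and 132, 2183 and 1156 FPKM in FFSS. Slc6a12, a transporter of betaine, was listed at 0 in all P3 libraries and in FFSS replicate 1, and at 27.8 and 16.5 FPKM in FFSS replicates 2 and 3. Fxyd2, a regulator of the sodium pump, was at 0, 0.843 and 0 FPKM in P3 and 0.259, 193 and 105 FPKM in FFSS.

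The falls of Dio3 and AABR07065531.1 lie in 1 stretch of chromosome 6, from 133662524 to 134629138 in Rnor_6.0, which holds 104 rows of the deposited table. The stretch was chosen after the values were seen, with these genes as its ends, and both are in the counts below. Neighbouring rows are not replicates, so the counts are a description and carry no test. Of these, 37 were above 0 in any P3 or FFSS library, and 36 of the 37 had the higher mean in P3, against 44.2% of all 21249 such rows of the table. Of the 37 rows, 19 were above 0 in 1 library alone and 6 in at least 4 of the 6 libraries. In this stretch 8 rows passed the filter. Mir770, a microRNA gene among them, was at 2.81, 6.94 and 6.49 FPKM in P3 and 0.711, 0 and 0 FPKM in FFSS. AABR07065531.5, a long noncoding RNA row among them, was at 21.7, 18.2 and 17.4 FPKM in P3 and 4.47, 8.83 and 6.69 FPKM in FFSS.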
